A study of Mus musculus with 23 samples.

Results

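Preneoplastic mouse cells with the H3.3K27M histone, targeted Trp53 and an shRNA against Atrx were compared with cells that also received Pdgfra, the gene of the alpha receptor for platelet-derived growth factor (PDGF). The comparison holds 6 of the 23 RNA-seq libraries of the series, 2 with added Pdgfra (K27M-APP 1 and 2) and 4 without it (K27M-AP 1, 2, 3 and 4), chosen by their labels. All 6 are labelled as neural progenitor cells from the brain of C57BL/6 mice. DNA was introduced into the embryonic cortex by in utero electroporation with a piggyBac transposon, and GFP-positive cells were sorted at 72 h and expanded. The K27M-AP genotype is given as H3.3K27M O/E (overexpression), Trp53-/- and Atrx shRNA, and K27M-APP as the same with Pdgfra O/E, so the controls carry every alteration but the receptor. The cells had been grown after sorting, and the labels name no promoter and leave unsaid whether a group's libraries represent separate animals, pools or cultures, so p-values measure only the spread between these libraries. A wild-type background is used alongside, with 2 empty-vector libraries (EV ctl 4 and 5) and 3 libraries with Pdgfra O/E alone (EV-PDGFRA 1, 2 and 3). A further 4 preneoplastic libraries, WT-AP (H3.3WT O/E with Trp53-/- and Atrx shRNA), enter the model fit for its estimate of spread and the check of the tables. The tumour libraries of the series (3 K27M-AP, 4 K27M-APP and 1 K27M-P) are given as 5 to 9 months. They enter only where tumours or all 23 libraries are named.

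PDGFRA is a receptor tyrosine kinase that binds PDGF dimers, above all those with A and C chains, and signals through the RAS-MAPK, PI3K-AKT and PLC-gamma branches. In the developing brain it marks oligodendrocyte precursor cells, where PDGF drives division and holds back differentiation into myelin-forming oligodendrocytes. Its gene is often amplified or mutated in childhood high-grade gliomas that carry the K27M change in histone H3. MAPK signalling induces its own inhibitors, among them the Sprouty proteins and the dual-specificity phosphatases, whose transcripts serve as a readout of pathway activity.

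Library K27M-AP 4 stood apart from the other 5, so gene values are given library by library and list results with and without it. Total counts ranged from 42582772 to 58390900. K27M-AP 4 was the highest or the lowest of the 6 libraries at 58.0% of the 20197 genes tested, K27M-AP 2 at 39.5%, and the others at 20.6% to 30.3%. Levels are given as CPM, counts scaled to the size of the library, and they compare libraries, not genes of different length. The summed level of 33 proliferation genes was 399.9 CPM in K27M-AP 4 and 4503 to 7083 CPM in the other 5 libraries, and that of 24 neural stem and progenitor genes was 5837 CPM against 8721 to 11732 CPM. Summed levels of 21 mature oligodendrocyte genes were 2653 CPM in K27M-AP 4, 809 CPM in K27M-AP 2 and 169 to 227 CPM in the other 4. The libraries also reached the deposited tables at different times. Both K27M-APP libraries and K27M-AP 1 and 2 were in the earlier table, whereas K27M-AP 3 and 4 were added in the later one. Among all 15 preneoplastic libraries, 2.84% of genes were higher in every library first listed in the later table than in any of the earlier one, and 1.45% the reverse. At the extreme, 8 processed pseudogenes stood below 0.1 CPM in all 8 earlier libraries and at 1.32 to 6.46 CPM in all 7 later ones. Xist, transcribed from the inactive X chromosome, and the Y-linked Ddx3y were both present in all 6 libraries, at 67.5 to 181 CPM and 18.2 to 59.9 CPM.

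The delivered receptor gene was higher where it was added. Pdgfra (ENSMUSG00000029231, chr5:75152292-75198215, GRCm38, plus strand) stood at 794 and 865 CPM in K27M-APP. In K27M-AP 1, 2, 3 and 4 it stood at 182, 311, 152 and 217 CPM. Both K27M-APP libraries were thus above all 4 controls, at 3.85 times their mean (830 ± 50.7, n = 2, against 216 ± 68.8 CPM, SD, n = 4), and the ratio was the same, 3.85, without K27M-AP 4. The log2 fold change was 1.94 (SE 0.46, unadjusted p = 0.000942) in edgeR's quasi-likelihood test, and with Benjamini-Hochberg adjustment over all genes p was 0.667. Without K27M-AP 4 it was again 1.94 (SE 0.51, unadjusted p = 0.00246, adjusted p = 0.992). The delivered receptor gene therefore did not pass the adjusted threshold of 0.05 in edgeR. Over the alternative analyses of the full comparison its log2 fold change stayed between 1.46 and 2.19. It passed the threshold in none of the alternatives, with or without K27M-AP 4 (DESeq2 with all libraries, adjusted p = 0.155). The counts do not separate delivered from endogenous Pdgfra transcripts. In the vector background Pdgfra stood at 48.5 and 33.1 CPM in EV ctl and at 845, 1301 and 408 CPM in EV-PDGFRA, a log2 fold change of 4.38.

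Counts at a microRNA gene inside Pdgfra showed the same separation. Mir7025 (chr5:75176831-75176904, GRCm38, plus strand; mmu-mir-7025 in the count table) spans the boundary between a coding exon of Pdgfra and the next intron. Its hairpin is printed here, from RefSeq on GRCm38.p6, to show how it lies across that boundary. In the hairpin the 30 capitals are the end of exon 10 (chr5:75176667-75176860) and the 44 lower-case bases lie in the intron, and in the 2 mature microRNAs capitals mark the seed, bases 2 to 8.
Mir7025 hairpin: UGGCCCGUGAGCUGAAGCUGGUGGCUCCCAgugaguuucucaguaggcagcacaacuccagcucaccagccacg
mmu-miR-7025-5p: cGUGAGCUgaagcugguggcuccc
mmu-miR-7025-3p: cAGCACAAcuccagcucaccag
The first mature sequence thus lies within the exon (chr5:75176836-75176859) and the second within the intron (chr5:75176878-75176899). Mir7025 was chosen after its values were seen. As it overlaps an exon of Pdgfra on the same strand, its counts may be reads of Pdgfra transcripts. They are therefore not a separate measure of a microRNA. Mir7025 stood at 24.1 and 25.7 CPM in K27M-APP and at 2.87, 5.26, 2.04 and 2.65 CPM in K27M-AP 1 to 4. Both libraries with added Pdgfra were above all 4 controls (log2 fold change 2.96, SE 0.61, unadjusted p = 0.000308, edgeR adjusted p = 0.667). DESeq2 called it at an adjusted p of 0.0219. Counts at Mir7025 amounted to 3.04% and 2.97% of the counts at Pdgfra in K27M-APP (1417 of 46632 and 1288 of 43436). In K27M-AP they amounted to 1.57%, 1.69%, 1.34% and 1.22%. The ratio was likewise 1.02% and 1.25% in EV ctl against 2.97%, 3.29% and 1.99% in EV-PDGFRA. In these 2 preneoplastic comparisons the ratio was thus higher in every library with added Pdgfra than in any of its controls. In the tumour libraries of the series the ratio overlapped, at 1.33% to 2.23% in 3 K27M-AP tumours and 2.09% to 4.82% in 4 K27M-APP tumours. An exact permutation test of 2 against 4 libraries cannot go below a two-sided p of 0.0667 (15 splits). The edgeR and DESeq2 p-values above rest instead on a spread modelled over 15 libraries.

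No gene passed the adjusted threshold in edgeR, either among the 20197 tested with all libraries (0% called higher and 0% lower) or among the 20011 tested without K27M-AP 4. The smallest adjusted p was 0.667 and 0.992. Before adjustment, 274 genes with p under 0.05 were higher in K27M-APP (1.36%) and 926 lower (4.58%), and without K27M-AP 4 these numbers were 167 and 279. DESeq2 called 6 genes, 1 higher (0.00495%) and 5 lower (0.0248%), and without K27M-AP 4 it called 3, Brd9 and the pseudogenes Gm6177 and Rpl10a-ps2, which are among the 8 that separate the tables. Counts of genes whose libraries did not overlap are used below as a description. Over all genes tested, both K27M-APP libraries were above all 4 K27M-AP libraries for 9.47% and below them for 9.53%. Without K27M-AP 4 the figures were 10.8% and 10.8%. The median log2 fold change over all genes was -0.03 with K27M-AP 4 and -0.02 without it.

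Among the PDGF ligands, the groups separated for all 4 genes, in different directions. Over all genes 9.47% were above all controls and 9.53% below. Pdgfa, which encodes the A chain, stood at 5.29 and 5.80 CPM in K27M-APP and at 8.67, 6.28, 9.31 and 25.6 CPM in K27M-AP 1 to 4. It was lower in both libraries than in all 4 controls, and the log2 fold change of -1.17 (SE 0.81, unadjusted p = 0.172) was -0.55 without K27M-AP 4, the library with the most Pdgfa. Pdgfb, the B chain, stood at 1.84 and 2.47 CPM against 0.407, 0.142, 1.12 and 0.0854 CPM (log2 fold change 2.28, SE 1.18, unadjusted p = 0.0761). Pdgfc stood at 15.8 and 17.6 CPM against 12.1, 8.52, 13.1 and 6.66 CPM (0.73, SE 0.39). Pdgfd stood at 1.60 and 1.37 CPM against 0.740, 0.850, 0.692 and 1.196 CPM (0.77, SE 0.72). The 3 ligands other than Pdgfa were therefore higher with added Pdgfra in every library pair. The beta receptor Pdgfrb stood at 0.749 and 1.26 CPM in K27M-APP and at 0.814, 5.05, 0.654 and 78.9 CPM in K27M-AP, so its log2 fold change of -4.41 rested on K27M-AP 4 and was -1.12 without it and 0.46 without K27M-AP 2 as well. In the vector background Pdgfa, Pdgfb and Pdgfc overlapped between EV ctl and EV-PDGFRA, whereas Pdgfd was at 0.147 and 0.113 CPM in EV ctl and 0.504, 0.893 and 0.433 CPM in EV-PDGFRA.

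**Figure D1:**
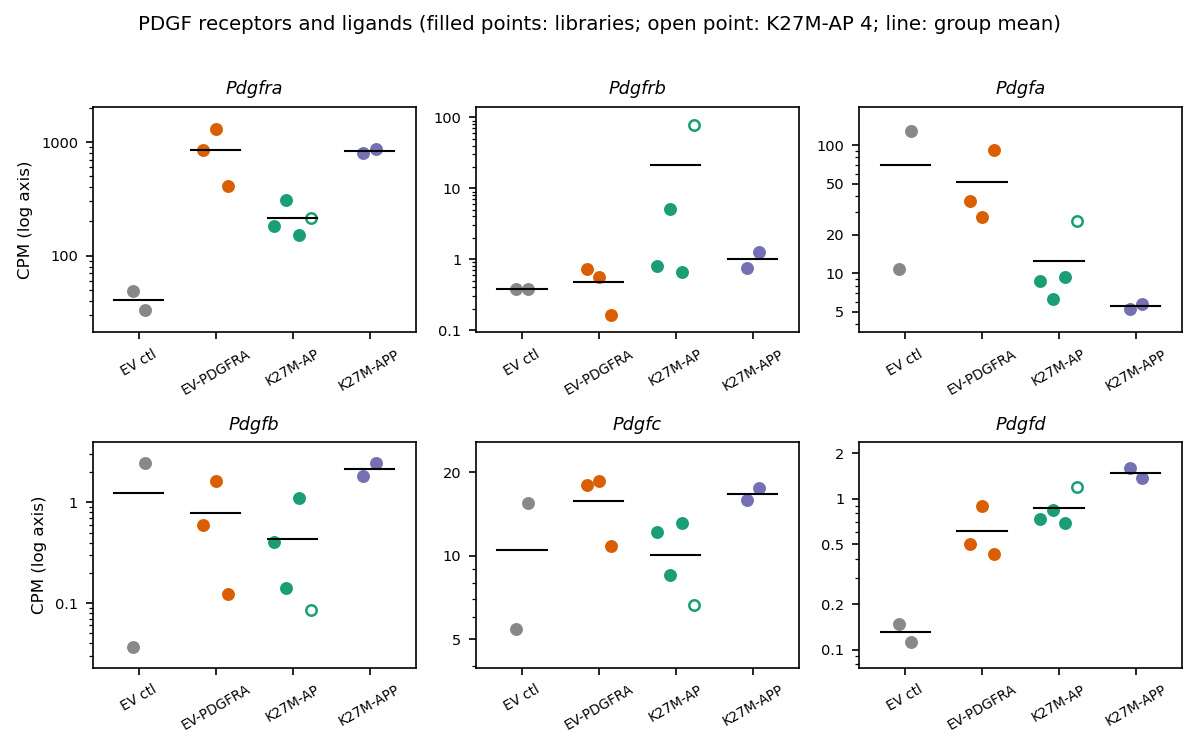
Levels of the 6 PDGF receptor and ligand genes in CPM on log axes, 1 point per library, for EV ctl, EV-PDGFRA, K27M-AP and K27M-APP, with lines at group means and K27M-AP 4 as an open point. Pdgfra is higher in K27M-APP (794 and 865 CPM) than in all 4 K27M-AP libraries, and the K27M-AP mean of Pdgfrb lies far above 3 of its 4 libraries because of K27M-AP 4 at 78.9 CPM.

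Of 33 MAPK feedback and early response genes tested, 28 had a positive log2 fold change in the cells with added Pdgfra and the median was 0.58. None passed the adjusted threshold in edgeR, 1 had an unadjusted p under 0.05, and 27 overlapped the controls. The 6 above all 4 controls (against 9.47% of all genes; none was below) were 3 Sprouty and 3 dual-specificity phosphatase genes. Without K27M-AP 4 the median was 0.49, with 26 of 33 positive and 6 above (beside 10.8% of all genes). Dusp4, Spry1, Spry2 and Spry4 were chosen after their values were seen. Dusp6, the phosphatase that inactivates ERK, stood at 608 and 543 CPM in K27M-APP and at 269, 77.5, 479 and 12.5 CPM in K27M-AP 1, 2, 3 and 4. The controls spread over a far wider range than the gap to K27M-APP, with K27M-AP 3 closest and K27M-AP 4 farthest (log2 fold change 1.46, SE 0.91, unadjusted p = 0.134, and 1.06 without K27M-AP 4). Spry4 followed the same order of libraries, at 253 and 281 CPM against 140, 37.1, 232 and 4.42 CPM (1.37, SE 0.99). Spry1, at 207 and 234 CPM against 117, 43.3, 174 and 10.2 CPM, and Spry2, at 286 and 257 CPM against 200.5, 136, 231 and 64.3 CPM, did so too. Both encode Sprouty inhibitors of receptor tyrosine kinase signalling. Dusp4, another ERK phosphatase, stood at 48.3 and 54.8 CPM against 29.5, 16.8, 33.4 and 3.20 CPM.

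Dusp2 had the smallest unadjusted p of the list (0.022, log2 fold change 1.48, SE 0.57), at 2.08 and 2.03 CPM against 0.666, 0.189, 1.44 and 0.641 CPM. Ccnd1, which encodes cyclin D1 and is a growth factor target, was the member with the most counts. It stood at 2049 and 2259 CPM in K27M-APP and at 1522, 375, 2076 and 56.2 CPM in K27M-AP, so that K27M-AP 3 lay between the K27M-APP libraries. Ier3, an immediate early gene, stood at 38.3 and 22.3 CPM against 11.1, 9.23, 23.3 and 2.84 CPM. Among the controls Dusp6, Dusp4, Spry1, Spry2, Spry4 and Ccnd1 ran in 1 order, highest in K27M-AP 3, then 1, 2 and 4. Against K27M-AP 1 and 3 only, the list's median was 0.28, and within the earlier table, against K27M-AP 1 and 2, it was 0.72. The levels of proliferation genes, lowest in K27M-AP 4 and next lowest in K27M-AP 2, moved with this list across the controls, and their part in the difference was not tested.

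**Figure D2:**
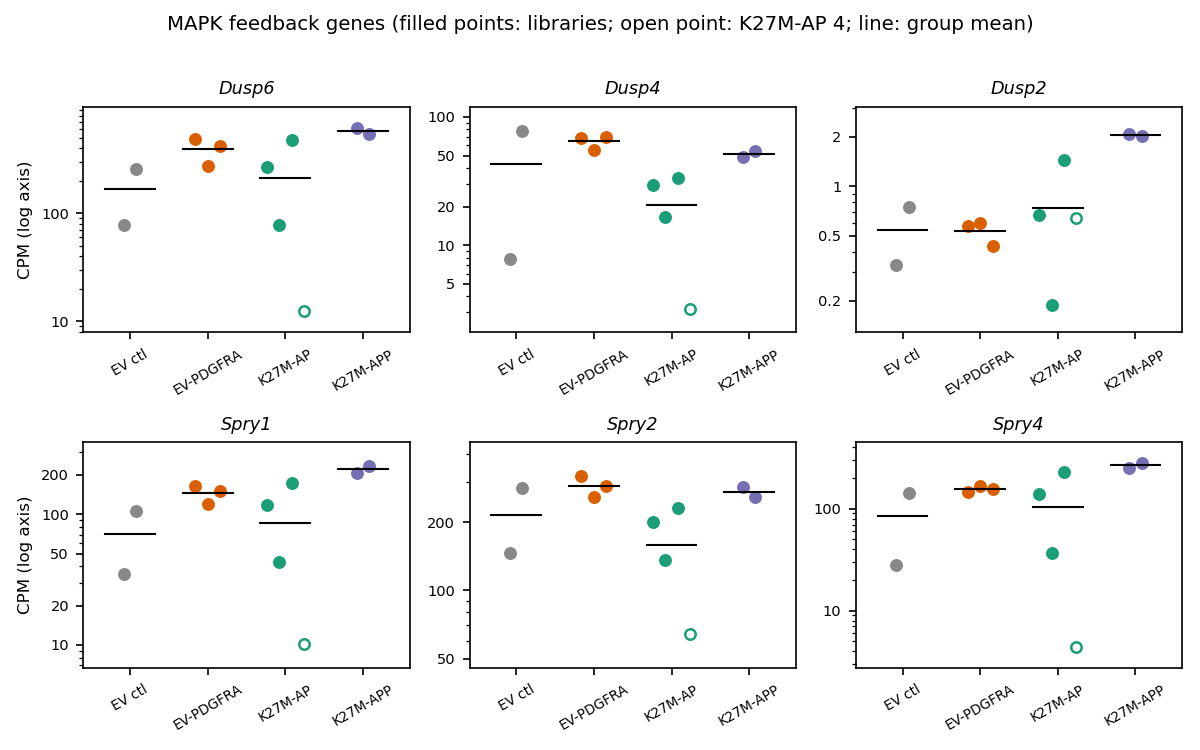
Levels of the 6 MAPK feedback genes that were above all controls in both K27M-APP libraries, in CPM on log axes, 1 point per library in 4 groups, with lines at group means and K27M-AP 4 as an open point. For Dusp6 the K27M-AP libraries run from 12.5 to 479 CPM beneath the K27M-APP libraries at 543 and 608 CPM.

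The proteins that carry the PDGF receptor signal had a median near that of all genes. Of 43 adaptor, kinase and phosphatase genes, 17 had a positive log2 fold change, and the median was -0.03. All controls were exceeded at 3 (7.0%), and 2 were below (4.7%), beside 9.47% and 9.53% of all genes. Fyn, a SRC-family kinase, stood at 428 and 480 CPM against 496, 349, 472 and 527 CPM. Lrig1, which encodes a membrane protein that restrains receptor tyrosine kinases, stood at 643 and 735 CPM against 554, 596, 510 and 252 CPM, above all 4 controls (0.53, SE 0.26). Gab2, an adaptor for PI3K and SHP2, stood at 22.9 and 34.2 CPM against 36.6, 37.2, 33.0 and 45.3 CPM.

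Response genes of the PI3K branch had a small positive median. Of 36, 24 were positive with a median of 0.22 (0.15 without K27M-AP 4), and 4 were above all controls (11.1%, near the 9.47% of all genes). Insr, the insulin receptor and a FOXO target, was one of them, at 139 and 184 CPM against 124, 127, 93.0 and 70.3 CPM. Txnip, a glucose-sensitive inhibitor of glucose uptake, had a log2 fold change of -2.58 (SE 1.29), but its controls stood at 2 levels, 20.9 and 12.4 CPM in K27M-AP 1 and 3 and 188 and 143 CPM in K27M-AP 2 and 4, with K27M-APP at 17.4 and 13.0 CPM. The sterol and fatty acid enzymes Hmgcs1 and Scd2 overlapped between the groups, with log2 fold changes of 0.26 (SE 0.32) and -0.17 (SE 0.19).

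Among 40 other receptor tyrosine kinases and ligands the median was 0.00, with 6 above (15%) and 5 below (12.5%) all controls. Over all genes these shares were 9.47% and 9.53%. Egfr stood at 468 and 588 CPM within the controls' range of 279 to 752 CPM, and Ddr1, a collagen receptor, at 313 and 358 CPM within 241 to 494 CPM. The members with the smallest unadjusted p were 2 ligands. Tgfa, a ligand of EGFR, stood at 4.97 and 4.50 CPM in K27M-APP and at 9.02, 15.8, 8.84 and 59.5 CPM in K27M-AP, below all controls (-2.30, SE 0.79, unadjusted p = 0.0126, and -1.25 without K27M-AP 4). Fgf2, a fibroblast growth factor, stood at 2.13 and 1.67 CPM against 1.24, 0.968, 1.19 and 0.897 CPM (0.82, SE 0.31, unadjusted p = 0.0186).

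Oligodendrocyte precursor genes other than Pdgfra had mostly negative log2 fold changes, and none passed the adjusted threshold in edgeR. Of 22 tested, 20 had a negative log2 fold change, the median was -1.08, and 10 were below all 4 controls while none was above (9.53% of all genes were below). Without K27M-AP 4 the median was -0.73 and 12 were below, beside 10.8% of all genes. Against K27M-AP 1 and 3 alone it was -0.35, with 18 of 22 negative, and within the earlier table it was -0.90. In these bulk libraries fewer cells of a type cannot be told apart from less RNA per cell. Pcdh15, a protocadherin of precursor cells, stood at 10.2 and 11.9 CPM against 22.8, 38.7, 24.9 and 43.7 CPM (-1.56, SE 0.56, unadjusted p = 0.016). Cacng4, a regulator of AMPA receptors, stood at 13.1 and 13.8 CPM against 24.6, 15.9, 35.0 and 32.1 CPM (-0.998, SE 0.35, unadjusted p = 0.0142). In both genes the lowest control still exceeded the K27M-APP libraries.

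Ednrb, Bcan, Gpr17 and Vcan were chosen after their values were seen. Ptprz1, a receptor phosphatase, stood at 537 and 740 CPM against 873, 856, 818 and 1284 CPM (-0.59, SE 0.28), and Vcan, which encodes versican, at 109 and 165 CPM against 222, 219, 177 and 261 CPM (-0.68, SE 0.36). Cspg4, which encodes the precursor antigen NG2, was below K27M-AP 1, 2 and 3 (40.4 and 64.6 against 94.7, 114 and 75.8 CPM) but not below K27M-AP 4 at 51.2 CPM. Its log2 fold change was -0.68, and -0.86 without that library (SE 0.29, unadjusted p = 0.011). Gpr17, a receptor of committed precursors, shows how far 1 library can reach, at 9.40 and 12.7 CPM against 23.5, 49.3, 14.6 and 1210.0 CPM. Its log2 fold change was -4.88 with K27M-AP 4 and -1.40 without. Ednrb, an endothelin receptor, stood at 321 and 343 CPM, near K27M-AP 3 at 350 CPM and K27M-AP 1 at 490 CPM and far below 1385 and 1519 CPM in K27M-AP 2 and 4. Bcan, which encodes brevican, stood at 265 and 291 CPM against 322, 513, 357 and 1312 CPM. Olig1, a lineage transcription factor, overlapped between the groups (756 and 835 against 1028, 797, 1011 and 646 CPM).

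Genes of differentiated glia and neurons had negative list medians, which shrank as K27M-AP 4 and then K27M-AP 2 were left out. Mature oligodendrocyte genes had a median of -1.90 over 21 genes with all controls, -0.66 without K27M-AP 4 and 0.06 against K27M-AP 1 and 3 alone. Astrocyte genes had medians of -1.03, -0.54 and 0.00, and genes of neurons and neurogenic factors -1.36, -0.61 and 0.08. Against K27M-AP 1 and 3 these 3 medians lay near that of all genes (0.00). That subset leaves out the controls with the highest summed levels of mature oligodendrocyte genes, so smaller medians follow in part from the choice. Within the earlier table, against K27M-AP 1 and 2, the medians were -0.80, -0.55 and -0.66. Cnp, a myelin enzyme gene, stood at 84.9 and 67.9 CPM in K27M-APP, 107 and 80.1 CPM in K27M-AP 1 and 3, 367 CPM in K27M-AP 2 and 601 CPM in K27M-AP 4. Cldn11, the tight junction gene of myelin, was below all controls, at 0.647 and 1.43 CPM against 2.20, 2.60, 2.50 and 64.4 CPM, and Bcas1 at 5.24 and 7.47 CPM against 8.95, 12.8, 8.31 and 329 CPM.

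Hepacam was lower against each control, K27M-AP 1 and 3 included. It encodes an astrocyte adhesion molecule, also called GlialCAM, and lies at chr9:37367351-37386575. It stood at 7.80 and 9.56 CPM in K27M-APP and at 33.1, 34.2, 35.9 and 103 CPM in K27M-AP. The 3 lower controls lay close together, at least 3 times as high as either K27M-APP library. The log2 fold change was -2.57 (SE 0.65, unadjusted p = 0.00174, edgeR adjusted p = 0.667) and -1.99 without K27M-AP 4 (SE 0.53, unadjusted p = 0.00256). DESeq2 called it with all libraries (adjusted p = 0.0339) and not without K27M-AP 4. Of the 23 astrocyte genes, 7 were below all controls (30.4%, beside 9.53% of all genes) and 1 above (4.35%, beside 9.47%). Sox9, a transcription factor of glial fate, was one of the 7, at 52.6 and 60.9 CPM against 86.4, 84.9, 76.7 and 93.0 CPM (-0.59, SE 0.20, unadjusted p = 0.0105). Gfap, the astrocyte intermediate filament, stood at 0.749 and 0.717 CPM against 1.37, 10.1, 1.81 and 367 CPM, and the calcium-binding protein gene S100b at 1.97 and 1.51 CPM against 2.16, 16.1, 2.92 and 46.7 CPM. The glutamate transporter Slc1a3 and the radial glial lipid carrier Fabp7, with high levels in all 6 libraries, overlapped between the groups (log2 fold changes -0.06 and 0.43). Sox9 and S100b were chosen after their values were seen, as were Mapt and Syt1 below.

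Among the 31 neuronal genes tested, 7 were below (22.6%) and 2 above (6.45%) all controls, beside 9.53% and 9.47% of all genes. Tubb3, neuronal tubulin, stood at 10.6 and 6.71 CPM against 11.4, 45.4, 18.7 and 103 CPM, and Mapt, which encodes tau, at 7.97 and 6.97 CPM against 14.9, 47.5, 18.4 and 168 CPM. Elavl3, a neuronal RNA-binding protein gene, stood at 3.74 and 2.35 CPM against 4.90, 6.94, 6.31 and 52.4 CPM. Syt1, the calcium sensor of synaptic vesicles, went the other way, at 58.4 and 77.9 CPM against 46.2, 49.1, 44.2 and 7.73 CPM (0.89, SE 0.70). Map2, at 791 and 865 CPM against 855 to 1106 CPM, and the growth cone gene Gap43, at 139 and 160 CPM against 35.6 to 205 CPM, overlapped between the groups.

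Markers of other cell types were scarce. The 18 microglial genes summed to 34.99 and 32.02 CPM in K27M-APP and to 33.7 to 61.3 CPM in K27M-AP, with C1qa, C1qb, C1qc, Fcrls, Siglech, Trem2 and Tyrobp at 0 in all 6 libraries. The 8 red blood cell genes summed to 0.272 to 0.708 CPM, with Hbb-bs and Hbb-bt at 0. The 17 endothelial and pericyte genes summed to 78.7 and 112 CPM against 127 to 288 CPM, and they include Cspg4, Notch3 and Pdgfrb. Ependymal and choroid plexus genes summed to 11.96 and 15.7 CPM against 15.5 to 28.5 CPM, with Ttr, Pifo and Tmem212 at 0 in all 6 libraries. The part of these cells in the differences was not tested.

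**Figure D3:**
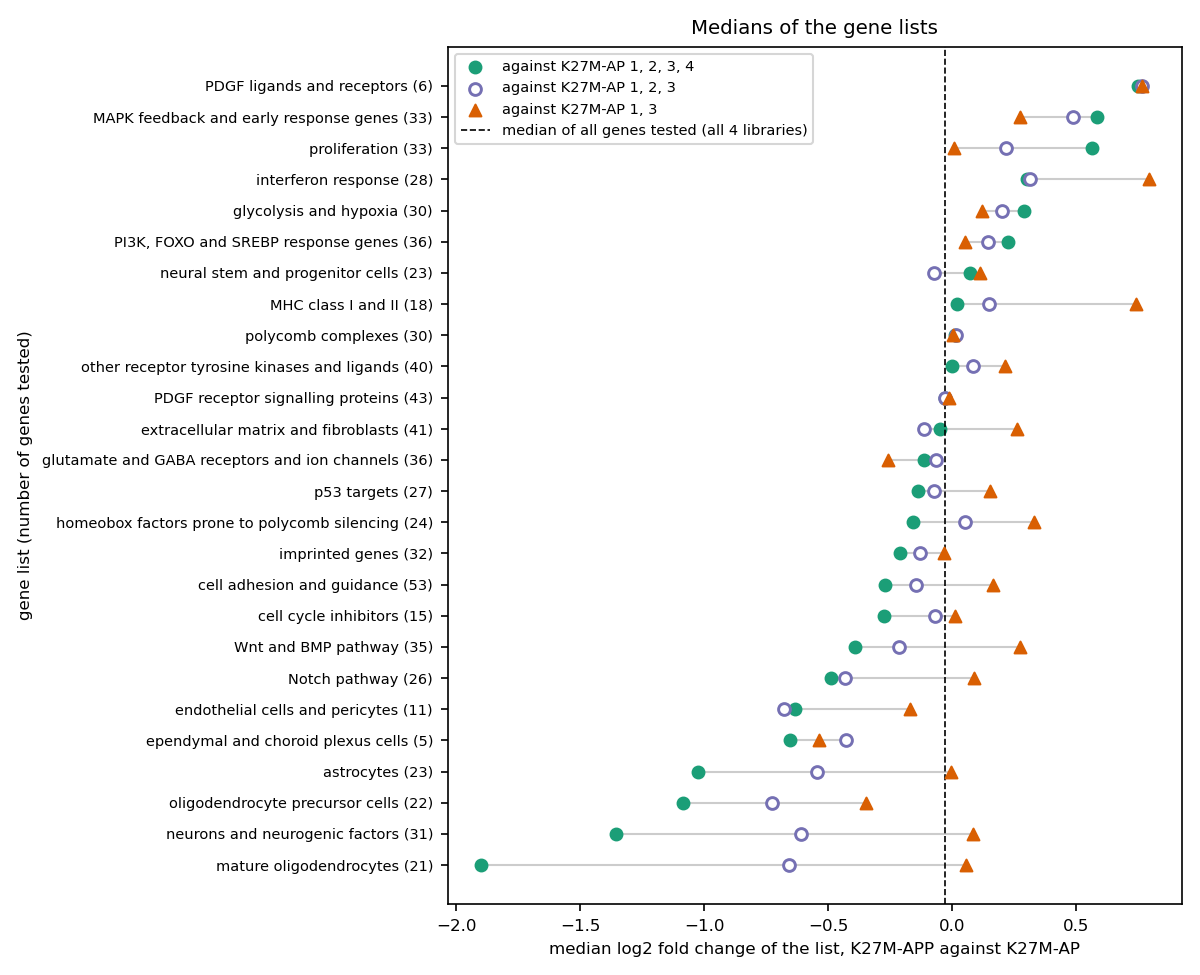
Median log2 fold change of K27M-APP against K27M-AP for the 26 gene lists with at least 5 genes tested, with all 4 controls (filled circles), without K27M-AP 4 (open circles) and against K27M-AP 1 and 3 (triangles); the dashed line is the median of all genes. Mature oligodendrocyte, neuron and astrocyte lists move from -1.90, -1.36 and -1.03 to 0.06, 0.08 and 0.00. The median of the PDGF list, which includes the delivered Pdgfra, is 0.75 to 0.77. Its member Pdgfrb moves from -4.41 to 0.46.

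Stem cell and cell division genes gave small differences once K27M-AP 4 was left out. All 33 proliferation genes had a positive log2 fold change with a median of 0.56, and 6 were above all controls (18.2%, beside 9.47% of all genes). Without K27M-AP 4 the median was 0.22, with 30 positive and 6 above (beside 10.8% of all genes). Against K27M-AP 1 and 3 it was 0.01 with 18 positive. Mki67, the Ki-67 antigen, stood at 601 and 922 CPM against 815, 677, 552 and 18.8 CPM, overlapping the first 3 controls. E2f1, a transcription factor of S phase entry, stood at 22.7 and 21.3 CPM against 15.7, 9.28, 17.4 and 2.03 CPM (0.98, SE 0.58), and Ccne1, cyclin E1, at 43.5 and 41.9 CPM against 37.2, 14.2, 40.1 and 7.82 CPM. Top2a overlapped K27M-AP 1. The 23 stem and progenitor genes had medians of 0.07 and, without K27M-AP 4, -0.07. Vim stood at 2339 and 2315 CPM, just above the highest control at 2192 CPM. The matrix protein gene Tnc, at 2373 and 3780 CPM, overlapped controls at 994 to 3209 CPM, and Msi1 stood at 28.0 and 30.9 CPM beside 27.6 and 30.6 CPM in K27M-AP 1 and 3.

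The genes altered in both groups were measured too. Trp53 stood at 18.7 and 18.6 CPM in K27M-APP and at 14.6, 13.2, 16.5 and 14.01 CPM in K27M-AP (log2 fold change 0.35, SE 0.23, unadjusted p = 0.141). The EV ctl libraries held 43.0 and 50.9 CPM. Atrx, a chromatin remodeller that deposits H3.3, stood at 78.5 and 88.6 CPM against 164, 115, 108 and 127 CPM, below all 4 controls that carry the same hairpin (-0.62, SE 0.30, unadjusted p = 0.0613). Atrx in EV ctl was at 238 and 182 CPM. H3f3a overlapped between the groups (276 and 244 against 264, 264, 237 and 287 CPM), and H3f3b was below all controls at 500.1 and 509 CPM against 537, 680, 589 and 680 CPM (-0.30, SE 0.14). Of 27 p53 target genes, 3 were above (11.1%) and 2 below (7.41%) all controls, with a median of -0.14. Those shares lay near the 9.47% and 9.53% of all genes. Cdkn1a, the p21 inhibitor, stood at 5.29 and 4.46 CPM against 1.85, 3.87, 2.69 and 2.90 CPM, and at 142 and 206 CPM in EV ctl. Tnfrsf10b, a death receptor, stood at 3.34 and 2.55 CPM against 1.07, 1.56, 0.731 and 0.256 CPM (1.70, SE 0.62, unadjusted p = 0.016), and Ddb2, a DNA repair gene, at 7.30 and 7.19 CPM against 8.49, 14.2, 8.13 and 25.5 CPM.

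Over all genes with at least 10 CPM in a group, the 8 below all controls and the 8 above with the smallest unadjusted p were named, and likewise without K27M-AP 4. Pdgfra is among the 8 above. The smallest p among the lower genes was that of Ugdh (chr5:65413221-65435949), the enzyme that makes UDP-glucuronate for glycosaminoglycans such as hyaluronan and chondroitin sulfate. It stood at 15.05 and 15.3 CPM in K27M-APP and at 34.1, 37.7, 28.8 and 46.2 CPM in K27M-AP. The log2 fold change was -1.27 (SE 0.27, unadjusted p = 0.000416) and -1.15 without K27M-AP 4 (SE 0.26, unadjusted p = 0.000941). The actin-binding protein gene Lima1 (chr15:99778470-99875456) stood at 40.7 and 35.1 CPM against 78.1, 103, 66.0 and 138 CPM (-1.34, SE 0.29, unadjusted p = 0.000423, and -1.12 without K27M-AP 4). Brd9 (chr13:73937811-73960895), a bromodomain subunit of a SWI/SNF chromatin remodelling complex, differed by less and with less spread, at 33.0 and 30.6 CPM against 41.1, 43.6, 45.1 and 47.3 CPM (-0.48, SE 0.12, unadjusted p = 0.00155). DESeq2 called Ugdh (adjusted p = 0.0237), Lima1 (0.0237) and Brd9 (0.0181), and Brd9 also without K27M-AP 4 (0.0354).

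Cntn1, the adhesion molecule contactin, stood at 63.9 and 93.2 CPM against 176, 158, 183 and 255 CPM (-1.30, SE 0.31, unadjusted p = 0.0012, and -1.13 without K27M-AP 4). Cntn1 is also a member of the adhesion list. Omg, oligodendrocyte myelin glycoprotein, stood at 5.48 and 6.16 CPM against 17.4, 30.2, 14.4 and 63.1 CPM. Nlgn3, the synaptic adhesion molecule neuroligin 3 and a member of the adhesion list, stood at 50.5 and 70.5 CPM against 124, 88.3, 110 and 169 CPM (-1.02, SE 0.32, unadjusted p = 0.00678). Of the 53 adhesion and guidance genes tested, 7 were below and 3 above all controls (9.53% and 9.47% over all genes), the latter including the integrin gene Itgb1 (931 and 1035 against 447 to 923 CPM). Rlbp1, a retinoid-binding protein gene of glia, stood at 15.2 and 12.2 CPM against 37.6, 43.3, 26.0 and 54.2 CPM. Stmn3, a microtubule regulator of neurons, stood at 11.4 and 8.63 CPM against 19.8, 18.5, 25.6 and 49.0 CPM, and Scg3, a secretory granule protein gene, at 6.38 and 9.46 CPM against 18.5, 18.3, 23.3 and 76.8 CPM. Channel genes included Scn8a, at 5.14 and 5.42 CPM against 7.45, 9.06, 8.98 and 17.1 CPM, and Grik4, a kainate receptor subunit, at 0.851 and 1.08 CPM against 2.48, 3.21, 2.25 and 8.11 CPM. Of the 36 receptor and channel genes, 7 were below (19.4%, beside 9.53% of all genes) and 3 above all controls (8.33%, beside 9.47%).

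Among the genes above all controls, Crispld2, a secreted protein gene, stood at 42.3 and 43.6 CPM against 18.9, 22.6, 21.8 and 9.42 CPM (1.24, SE 0.40, unadjusted p = 0.00835, and 1.02 without K27M-AP 4). Tmsb10, an actin-sequestering thymosin, was named without K27M-AP 4 and stood at 611 and 473 CPM against 328, 281, 341 and 83.2 CPM (0.77, SE 0.25, unadjusted p = 0.00909). Fut8, which adds core fucose to glycoproteins, stood at 114 and 113 CPM against 89.3, 64.7, 82.4 and 49.0 CPM. In Fut8, as in Naif1 (20.1 and 17.9 against 12.02, 6.99, 13.96 and 5.04 CPM), K27M-AP 1 and 3 lay nearer to K27M-APP than K27M-AP 2 and 4 did. Acy1, an aminoacylase, stood at 24.6 and 20.3 CPM against 11.2 to 16.0 CPM, and Frrs1l, an AMPA receptor assembly factor, at 33.2 and 43.1 CPM against 20.5 to 27.2 CPM. Ctdspl (23.4 and 29.0 against 13.1 to 18.6 CPM), Mesdc2 (91.4 and 80.5 against 52.98 to 73.4 CPM), a chaperone of LRP receptors, and Stard5 (12.6 and 12.2 against 4.08 to 9.54 CPM), a sterol carrier, completed the set.

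**Figure D4:**
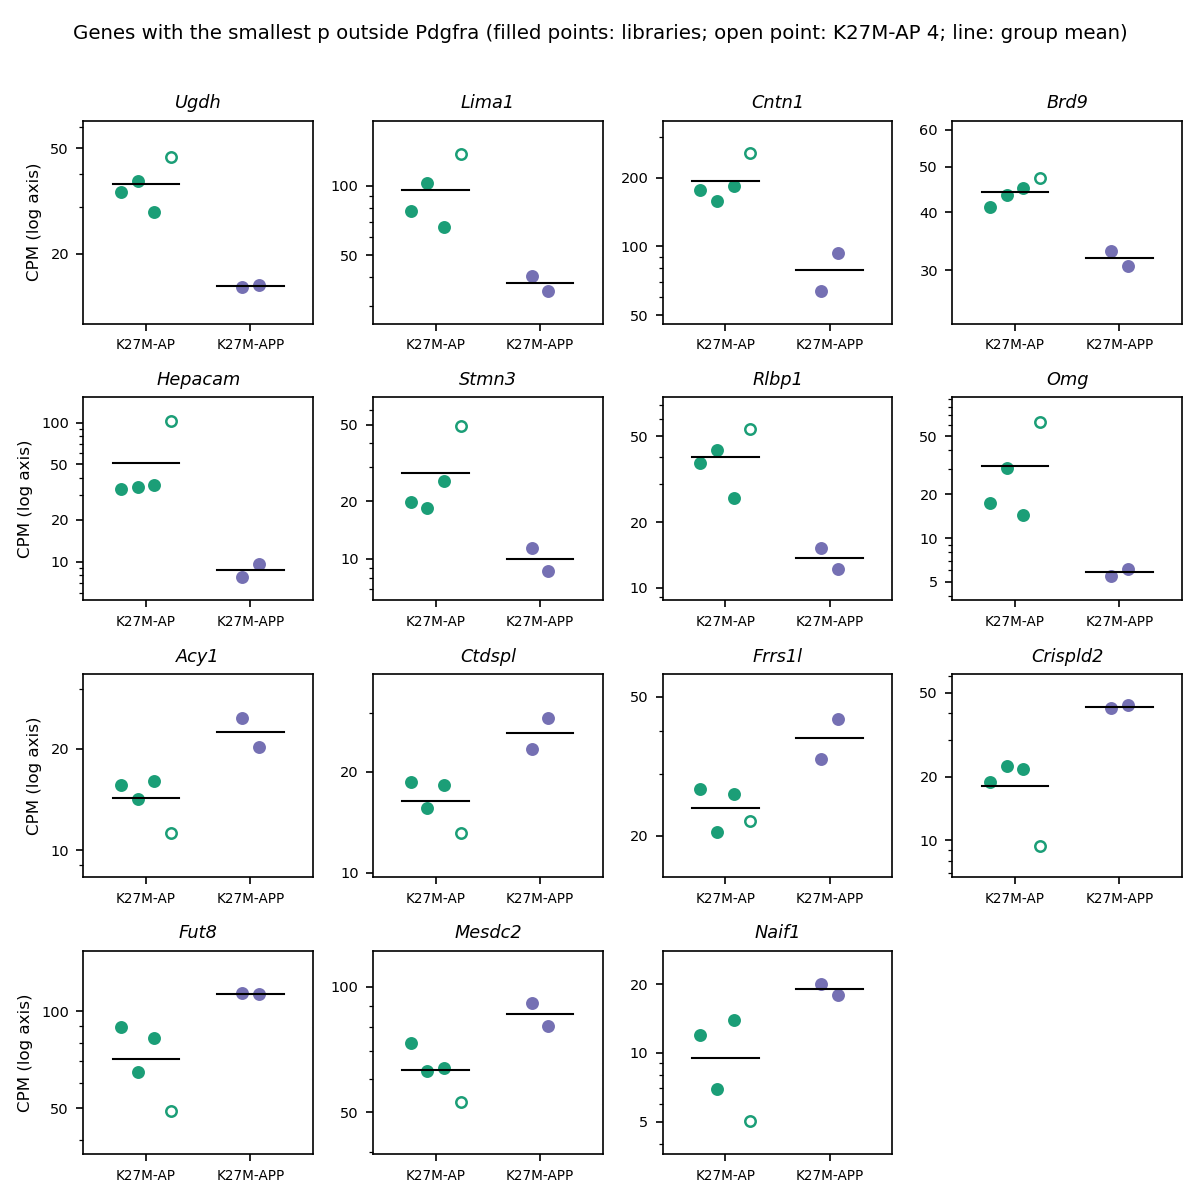
Levels of the 8 lower genes and, besides Pdgfra, the 7 higher genes that the naming rule took per direction with all libraries, in CPM on log axes, 1 point per library, with lines at group means and K27M-AP 4 as an open point. The first 8 are lower in K27M-APP, as Ugdh at 15.05 and 15.3 CPM against 28.8 to 46.2 CPM, and the last 7 are higher.

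Igf2bp1 was singled out after its values were seen, since limma's voom with sample weights called it. It encodes an RNA-binding protein of fetal tissues and lies at chr11:95957163-96005940. It stood at 29.7 and 37.1 CPM in K27M-APP and at 5.86, 16.3, 7.33 and 2.71 CPM in K27M-AP, and at no more than 0.0459 CPM in the 5 libraries of the vector background. Both libraries with added Pdgfra were above all controls, at 4.15 times their mean (3.40 times without K27M-AP 4). edgeR gave a log2 fold change of 2.05 (SE 1.02, unadjusted p = 0.0643, adjusted p = 0.667), and voom 2.31 (adjusted p = 0.0152). The only other gene voom called, Mir3063 (chr11:95963292-95963383), lies in an annotated untranslated exon of Igf2bp1 on the same strand and may share its reads. It stood at 1.19 and 1.22 CPM against 0.240, 0.567, 0.154 and 0.0641 CPM. S100a14, named for the same reason after DESeq2 called it, had counts in K27M-AP 4 (1.79 CPM) and was at 0 in the other 5 libraries. The predicted gene Gm26924, chosen after its values were seen, stood at 1859 and 6753 CPM against 1246, 885, 1554 and 964 CPM.

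Interferon response genes had 5 of 28 above all controls (17.9%) and none below. Over all genes 9.47% were above and 9.53% below. The median of the interferon list was 0.30 (0.31 without K27M-AP 4, 0.79 against K27M-AP 1 and 3, and 0.18 within the earlier table). Ifi27, an interferon-induced gene and one of the more abundant members, overlapped between the groups at 24.5 and 27.6 CPM against 11.5, 20.5, 30.3 and 26.9 CPM. Bst2, chosen after its values were seen, stood at 11.4 and 9.90 CPM against 4.42, 8.78, 4.42 and 2.35 CPM. Among 18 MHC genes 4 were above (22.2%) and none below, but only 9 had a positive log2 fold change. The median of the MHC list was 0.02 (0.15 without K27M-AP 4, 0.74 against K27M-AP 1 and 3, and -0.06 within the earlier table). H2-K1, a class I gene with near-identical relatives among which the counting may split reads, stood at 59.0 and 52.8 CPM against 41.5, 38.2, 38.4 and 17.3 CPM, whereas B2m overlapped. Of 30 glycolysis and hypoxia genes 4 were above (13.3%) and 1 below (3.33%). Eno1 stood at 359 and 369 CPM against 303, 189, 243 and 98.3 CPM (0.81, SE 0.33, unadjusted p = 0.0295). Ldha stood at 637 and 539 CPM against 475, 208, 437 and 124 CPM. Matrix genes had 4 of 41 on either side (9.76%), near the shares of all genes. The inhibitor Timp2 stood at 20.5 and 24.5 CPM against 33.7, 52.1, 36.7 and 101 CPM (-1.31, SE 0.38, unadjusted p = 0.00418) and Adamts4, a protease of chondroitin sulfate proteoglycans, at 23.03 and 21.5 CPM against 29.1, 41.7, 32.4 and 34.5 CPM.

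The counts of the next lists stand beside 9.47% of all genes above all controls and 9.53% below. Polycomb complex genes had a median of 0.01, with 2 of 30 above and 4 below. Rbbp7 at 300.2 and 294.2 CPM was level with 285 and 294 CPM in K27M-AP 1 and 3. Cbx7, a chromobox subunit, stood at 3.18 and 2.31 CPM against 2.85, 7.39, 4.50 and 8.63 CPM. Polycomb-prone homeobox genes had 2 of 24 above and 4 below all controls, and 27 of 37 Hox genes were at 0 in all 6 libraries. Notch genes had 3 of 26 on either side, Wnt and BMP genes 5 above and 2 below of 35, imprinted genes 3 above and 4 below of 32, and cell cycle inhibitors 1 above and none below of 15. The median of the Notch list was -0.49, 0.09 against K27M-AP 1 and 3, and -0.61 within the earlier table. That of the Wnt and BMP list was -0.39, 0.27 and -0.37 in the same order. Notch1 stood at 290 and 402 CPM against 373, 958, 259 and 496 CPM, with K27M-AP 2 highest. Dtx1, a Notch regulator, was below all controls at 19.01 and 18.3 CPM against 29.2, 30.7, 31.9 and 60.0 CPM (-1.02, SE 0.45, unadjusted p = 0.0398). So was Wnt7b, a ligand, at 23.6 and 25.9 CPM against 40.6, 102, 39.6 and 72.3 CPM (-1.36, SE 0.55, unadjusted p = 0.0281).

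Whether added Pdgfra acted differently in the 2 backgrounds was tested as the difference between K27M-APP against K27M-AP and EV-PDGFRA against EV ctl, which share no library. edgeR called 0 genes (0%), with 494 at an unadjusted p under 0.05, and DESeq2 called 6, of which 2 were Xist and the row Xist_exon4. Xist stood at 276 and 43.9 CPM in EV ctl and at 0.0397 to 0.138 CPM in EV-PDGFRA, and Ddx3y at 0 and 86.0 CPM against 66.8 to 87.0 CPM, so that these 2 groups differed in sex-linked transcripts. The part of that difference in the comparison was not tested. In a fit of the compared groups alone edgeR called 1 gene, Xist (adjusted p = 0.0446). Without EV ctl 4 edgeR called 4. For Pdgfra itself the difference was -2.44 on the log2 scale (unadjusted p = 0.00508, edgeR adjusted p = 1) with control means of 40.8 CPM in the vector background and 216 CPM in K27M-AP. The 6 MAPK feedback genes gave values of the same sign in both backgrounds except Dusp2, as in Dusp6 (1.46 and 1.24), Spry1 (1.35 and 1.04) and Spry4 (1.37 and 0.89). In the vector background, however, EV ctl 5 was not below EV-PDGFRA for Spry2 and Dusp4, and the 2 EV ctl libraries differed from each other, with Dusp6 at 77.5 and 254 CPM against 488, 274 and 418 CPM. Over the whole MAPK list the median was 0.58 in the K27M-AP background and 0.10 in the vector background. The oligodendrocyte precursor list had a median of 0.24 in the vector background beside -1.08 in the K27M-AP background. The latter was -0.73 without K27M-AP 4 and -0.35 against K27M-AP 1 and 3. Both EV ctl libraries were first listed in the later table and both K27M-APP libraries in the earlier one. Hepacam overlapped in the vector background (123 and 57.5 against 123, 80.0 and 164 CPM), with a difference between backgrounds of -3.01 (unadjusted p = 0.00466, adjusted p = 1). Cntn1, Ugdh, Lima1 and Brd9 had log2 fold changes of -0.13, -0.28, -0.49 and -0.14 in the vector background.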

How the data were processed

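RNA-seq counts were compared between 2 K27M-APP and 4 K27M-AP libraries, grouped by their labels. The authors deposited 2 tables of raw gene counts of 39017 rows, with 21 and 22 columns. The 12 columns in both were identical, the later table was used, and 8 columns that match no sample label were not used. Per the submitters' processing notes the tools were Trimmomatic 0.32, STAR 2.3.0e, featureCounts 1.4.4, SAMtools 0.1.19, Picard and GATK, with the mm10 build. The strand setting and annotation release are not given in the sources used here. Positions and exons come from GENCODE M21 on GRCm38 for the 37607 matched IDs.

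edgeR 4.0.16 (R 4.3.3) fitted quasi-likelihood models to 15 preneoplastic libraries (2 K27M-APP, 4 K27M-AP, 2 EV ctl, 3 EV-PDGFRA and 4 WT-AP) with TMM scaling, filterByExpr (minimum count 10, total 15) and 1 mean per group. The fit without K27M-AP 4 used 14. P-values were Benjamini-Hochberg adjusted over all genes (threshold 0.05). Residual degrees of freedom were 10 and 9. The fits were run on simulated data with less spread between libraries than these data have and with no library set apart. That run checks the code and cannot tell how many changed genes the fits would miss here.

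The alternatives were DESeq2 1.42.0 (its test, and its size factors in edgeR), no count filter, limma 3.58.1 voom with sample weights, other sets of libraries, the table as a term or 1 table alone, the replicate number as a block, and leaving out each library. Named genes were Pdgfra, Trp53, Atrx, H3f3a, H3f3b and the PDGF genes, up to 8 a direction with the smallest unadjusted p among genes whose groups did not overlap and whose mean reached 10 CPM in one, and in each of 29 lists the 2 most abundant members and the 2 with the smallest p. Predicted, sex-linked and small RNA genes were left out of that rule. The genes compared and the lists were chosen with earlier results of these data known. Tumour libraries entered only the fit of all 23 libraries and the Mir7025 ratio, variant files were not analysed here, and a few genes within the rule are not reported here. Totals ranged from 42582772 to 58390900 counts over the 6 libraries.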

Additional observations from a re-analysis of the deposited data

Results flagged for a closer look

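Of 97 genes examined in the 4 K27M-AP libraries, 17 had 1 library far from the other 3, its gap to the nearest, as a share of the group's whole range, above Dixon's critical value. The genes examined are ones named above, many of them chosen by their values, and all share the same 4 libraries. No chance rate therefore applies to the count, which is a description only. In all 17 the library was K27M-AP 4. It was the highest for the mature oligodendrocyte genes Bcas1 (gap of 0.986) and Cldn11 (0.994), for the precursor genes Gpr17 (0.971) and Ptprz1 (0.881), for Gfap (0.976) and Hepacam (0.960), and for the neuronal and channel genes Elavl3 (0.957), Scg3 (0.915), Grik4 (0.836) and Scn8a (0.833). It was also the highest for Pdgfa (0.844), Pdgfrb (0.944), Tgfa (0.863) and S100a14 (1). K27M-AP 4 was the lowest for Syt1 (0.884), Vim (0.836) and H2-K1 (0.864). Pdgfra itself was not among them.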

How the results depend on the processing

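With all libraries edgeR called 0 genes in each of its alternatives, DESeq2 called 6 and voom with sample weights 2, and without K27M-AP 4 these were 0, 3 and 2. For the difference between backgrounds DESeq2 called 6, the fit of only the compared groups called 1, and leaving out 1 library gave 0 to 4, the 4 without EV ctl 4. The fit on the earlier table could not be run for that difference, since both EV ctl libraries are in the later one. Of 2815 alternative values of 194 gene results, 2763 kept their direction and side of the threshold, 11 passed it under DESeq2 or voom, and 41 changed sign. Those 41 belong to 14 results, and the cause was not tested. With all libraries the replicate block gave H3f3a 0.0059, Fyn 0.078 and Slc1a3 0.157, the table term Fyn 0.031, the earlier table Fyn 0.086 and Slc1a3 0.267, and voom H3f3a 0.024, Ddr1 0.190 and Slc1a3 0.088. Leaving out 1 library gave Fyn -0.13 to 0.048, Egfr -0.23 to 0.21, Ddr1 -0.21 to 0.15, H3f3a -0.13 to 0.076 and Slc1a3 -0.20 to 0.19. Without K27M-AP 4, the block gave H3f3a -0.037 and Mki67 -0.171, the table term H3f3a -0.036 and Mki67 -0.101, the earlier table H3f3a -0.044, and voom Pdgfrb 0.171, Fyn -0.072, Hmgcs1 -0.033 and Ddr1 0.21. Leaving out a further library there gave B2m -0.017 to 0.25, Pdgfrb -1.55 to 0.46, Fyn -0.076 to 0.14, Hmgcs1 -0.043 to 0.38, Ddr1 -0.24 to 0.33, Msi1 -0.80 to 0.033, H3f3a -0.051 to 0.145, Tnc -0.0024 to 0.65 and Mki67 -0.151 to 0.45. A check added after seeing the data took the list medians over the alternatives with all libraries. They ran from 0.62 to 0.78 for the PDGF genes, Pdgfra included, and 0.35 to 0.85 for MAPK feedback. For oligodendrocyte precursors they ran from -1.29 to -0.57, for neurons from -2.07 to -0.04 and for interferon response from -0.04 to 0.72. The labels do not say that replicate numbers pair the samples. Deviations of same-numbered libraries correlated at -0.166 and -0.138 over 2 pairs. With 2 K27M-APP libraries the deviations from their mean mirror each other, so these values cannot decide whether samples are paired. With the replicate block 0 genes were called, and 1033 (1221 without K27M-AP 4) had an unadjusted p under 0.05. Whether depth or the number of libraries limits the calls was not tested.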
